A study of Homo sapiens with 8 samples.

Results

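To assess how transcripts of the STAT5 pathway behave when the immunoproteasome is inhibited, 9 genes were read from a table of 38551 genes in MOLM-13 cells: the transcription factor genes STAT5A and STAT5B, the kinase genes PIM1, PIM2 and PIM3, and the feedback inhibitor genes CISH, SOCS1, SOCS2 and SOCS3. They were picked by name as STAT5 genes and targets that lie downstream of the receptor FLT3. MOLM-13 is a cell line from acute myeloid leukemia that carries a KMT2A fusion and is also known for an internal tandem duplication in FLT3. The controls were 4 libraries of MOLM-13 given the diluent DMSO, and the treated group was 4 libraries of MOLM-13 given 100 nM PR-957 (ONX-0914), an inhibitor of the immunoproteasome subunit PSMB8, with 72 h of exposure in both. All libraries come from this 1 cell line. The sources used here do not say whether the 4 libraries of a group came from separate cultures. The p-values thus weigh the difference between groups against the spread of these libraries, which may not include the spread between cultures.

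STAT5A and STAT5B are 2 closely related proteins that wait in the cytoplasm until a receptor-bound kinase phosphorylates them, and then enter the nucleus as dimers. Receptors with the FLT3 duplication signal without their ligand and keep STAT5 phosphorylated. Among the best known STAT5 targets are the PIM serine/threonine kinases, which favour survival and growth, and CISH and the SOCS proteins, which bind activated receptors or Janus kinases and damp the signal. Transcript levels of these targets are often read as the output of the pathway, while STAT5 phosphorylation itself is not measured by RNA-sequencing.

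Total counts ran from 16675036 to 23111223 per library. DMSO replicate 4, the deepest library, stood apart from the other DMSO libraries. Its counts differed from theirs by a chi-square of 10.2 to 15.3 per gene, against 3.32 to 5.83 among the other 3 and 4.43 to 9.08 among the PR-957 libraries. The values of PIM1 and SOCS3, which moved most with it, are given with and without it. All 6 myeloid markers checked (CD33, MPO, SPI1, LYZ, FLT3 and CEBPA) were present, with a summed level of 1370 to 1474 CPM (counts in every 1000000, TMM-normalised) in DMSO and 2148 to 2415 CPM in PR-957 libraries. The summed T cell, B cell, erythroid and epithelial markers stayed at or below 1.55 CPM in every library and fibroblast markers at or below 2.66 CPM, and CD3E had 0 counts in all libraries. The higher sum came from LYZ (mean 153 CPM in DMSO, 820 in PR-957) and MPO (175 and 506), while SPI1 (158 and 181), CD33 (37.5 and 38.6) and CEBPA (564 and 555) differed less and FLT3 was lower. The part of these marker differences in the results below was not tested.

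Under PR-957, 5 of the 9 genes were lower and 0 were higher. PIM1, the kinase gene with the largest change, fell to 41.7% of its DMSO level, SOCS2 to 63.2%, SOCS1 to 71.3%, CISH to 72.7% and STAT5B to 79.3%. STAT5A, PIM2, PIM3 and SOCS3 were not called. In bulk RNA, fewer cells with a transcript and less of it per cell cannot be told apart. All 9 genes passed the filter on low counts. Calls were made with the edgeR quasi-likelihood test at an adjusted p under 0.05, where 46.6% of 13179 genes tested were called, 23.5% lower and 23.1% higher. The called share of the 9 genes, 55.6%, was thus not far above that of all genes, while all of their calls were in 1 direction. DESeq2 and limma-voom also called 5 genes lower and 0 higher, and at an unadjusted p under 0.05 all 3 tools gave the same 5 and 0. The median log2 fold change was -0.34 over the 9 genes and 0.00300 over all genes tested. In 4 genes, namely PIM1, SOCS2, CISH and STAT5B, no PR-957 library reached any DMSO library, a pattern seen in 42.5% of all genes tested (21.7% in the lower direction).

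**Figure D1:**
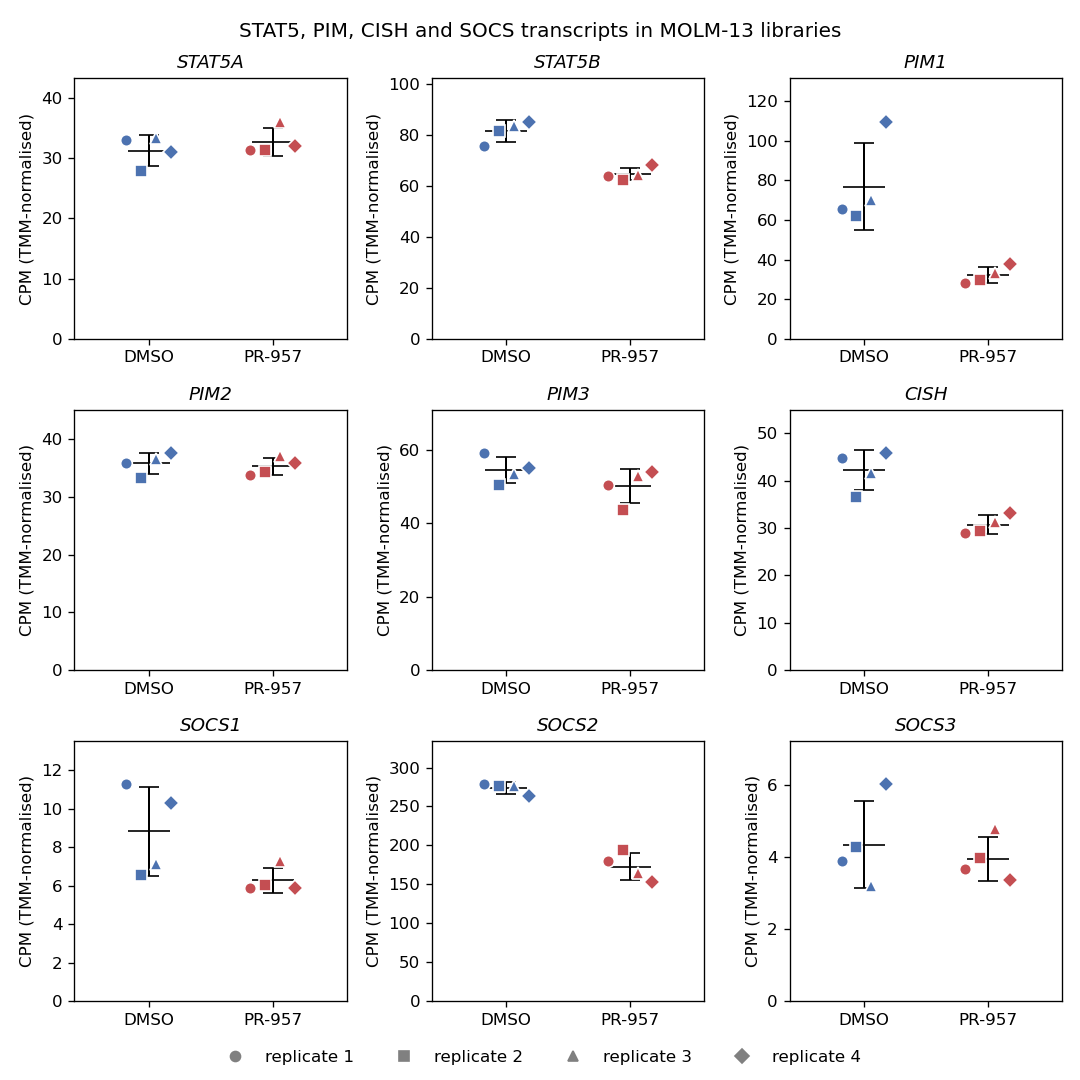
Transcript level of each of the 9 genes (y axes, TMM-normalised CPM from 0) in the 4 DMSO and 4 PR-957 libraries. Points are libraries, with the shape giving the replicate number, and bars are the mean ± SD. For STAT5B, PIM1, CISH and SOCS2 the PR-957 points lie below all DMSO points, and DMSO replicate 4 is far above the others for PIM1, at 109.7 CPM.

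The transcription factors were examined first. STAT5B and STAT5A lie head to head on chromosome 17, STAT5B on the minus strand (42199177 to 42288437, hg38) and STAT5A on the plus strand (42287547 to 42311943). STAT5B was at 75.8, 81.7, 83.7 and 85.2 CPM in DMSO replicates 1 to 4 and at 64.0, 62.5, 64.4 and 68.1 CPM in PR-957 replicates 1 to 4. Every PR-957 library was below every DMSO library, by a margin small against the level itself. The log2 fold change was -0.34 (SE 0.06, edgeR adjusted p = 8.79e-05). STAT5A was at 32.9, 27.8, 33.3 and 30.9 CPM in DMSO and at 31.4, 31.4, 36.0 and 31.9 CPM in PR-957 libraries, so the groups overlapped. Its log2 fold change was 0.07, with a 95% interval from -0.09 to 0.23 (edgeR adjusted p = 0.484).

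Both genes share 571 exon bases on opposite strands, which is 12.7% of STAT5A and 8.88% of STAT5B. Counting was strand-specific, and in a gene that lies within the exons of another on the opposite strand, PCNA-AS1 within PCNA, the density of counts was 0.104% of that of PCNA. The 2 genes also share much of their coding sequence, and fragments that fit both places equally were not counted for either. Per length of exon, STAT5B was the more abundant in all 8 libraries. STAT5A made up 35.4 ± 2.45% of their summed length-normalised level in DMSO and 41.9 ± 1.83% in PR-957 libraries (SD, n = 4).

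PIM kinases are active as soon as they are made, so that the amount of transcript is a main point of control. PIM1 (chromosome 6, 37170152 to 37175428, plus strand) had 65.7, 62.2, 70.0 and 109.7 CPM in DMSO replicates 1 to 4. The PR-957 libraries had 28.4, 29.6, 33.1 and 37.7 CPM. The highest PR-957 library was well below the lowest DMSO library, and the DMSO group was spread widely by replicate 4 alone. Replicate 4 was also the highest of the PR-957 libraries. The log2 fold change was -1.26 (SE 0.21, edgeR adjusted p = 0.00295), which only 1.53% of all genes tested fell below. Without DMSO replicate 4 it was -1.04 (SE 0.08, adjusted p = 3.98e-09), a smaller change with less error. In replicates 1 and 2 only it was -1.14 (adjusted p = 6.51e-16). With replicates 3 and 4 alone it was -1.36 and PIM1 was not called (adjusted p = 0.0664). A fit with the replicate number as a block gave -1.23 (SE 0.07, edgeR adjusted p = 5.47e-11). A term for replicates 1 and 2 against 3 and 4 gave -1.25 (SE 0.15, edgeR adjusted p = 0.000425). The 19 alternatives gave adjusted p between 6.51e-16 and 0.0664.

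The other PIM genes did not show such a difference. PIM2 (chromosome X, 48913182 to 48919024, minus strand) ran from 33.2 to 37.6 CPM in DMSO and from 33.9 to 37.2 CPM in PR-957 libraries. Its log2 fold change was -0.02, with a 95% interval from -0.16 to 0.12 (edgeR adjusted p = 0.825), so a change as large as that of SOCS2 or PIM1 lies outside the interval. PIM3 (chromosome 22, 49960772 to 49964072, plus strand) had 59.2, 50.6, 53.6 and 55.1 CPM in DMSO and 50.6, 43.7, 52.9 and 54.2 CPM in PR-957 libraries. The groups overlapped, and the log2 fold change was -0.12, with an interval from -0.27 to 0.03 (adjusted p = 0.187). With replicates 1 and 2 alone PIM3 was called, at -0.22 on the log2 scale (adjusted p = 0.0388), and the 19 alternatives gave adjusted p between 0.0388 and 0.831.

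**Figure D2:**
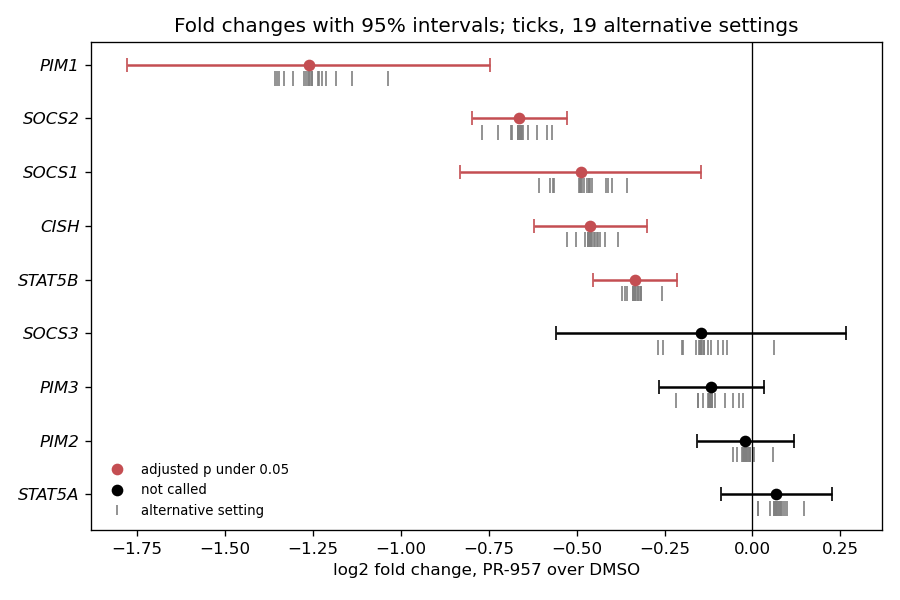
Log2 fold change of PR-957 over DMSO for each gene (x axis), with the 95% interval of the edgeR fit. Red marks the 5 genes with an adjusted p under 0.05, black the 4 others, and grey ticks the values under the 19 alternatives. PIM1 lies farthest to the left at -1.26, and the intervals of STAT5A, PIM2, PIM3 and SOCS3 include 0.

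Ratios between genes of the same role were then formed within each library, which no scaling of libraries can move. This was done for all 10 pairs after the fold changes had been seen. The ratio of PIM1 to PIM2, per length of exon, was 1.41 to 2.24 in DMSO and 0.643 to 0.807 in PR-957 libraries, so PIM1 passed from the more to the less abundant of the pair in every library. The ratio of PIM1 to PIM3 was 0.862 to 1.55 in DMSO and 0.435 to 0.541 in PR-957 libraries. For STAT5A to STAT5B it was 0.487 to 0.622 and 0.671 to 0.801. In these 3 pairs the groups did not overlap, and each had the smallest exact permutation p that 4 against 4 libraries allow (two-sided p = 0.0286), which became 0.0952 after Benjamini-Hochberg adjustment over the 10 pairs and does not pass 0.05. The other 7 pairs overlapped, with exact permutation p between 0.114 and 1. PIM2 to PIM3 was among them, at 0.614 to 0.692 in DMSO and 0.670 to 0.797 in PR-957 libraries (exact permutation p = 0.257). Of the summed PIM level per length, PIM1 made up 39.2 ± 5.86% in DMSO and 22.5 ± 1.59% in PR-957 libraries (SD, n = 4), and PIM3 made up 36.6 ± 4.07% and 45.3 ± 1.76%. The highest DMSO value of both PIM1 ratios was that of replicate 4. Without it, the DMSO libraries ended at 1.47 for PIM1 to PIM2 and at 1.02 for PIM1 to PIM3, and the PIM1 share was 36.3 ± 1.37% (SD, n = 3).

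**Figure D3:**
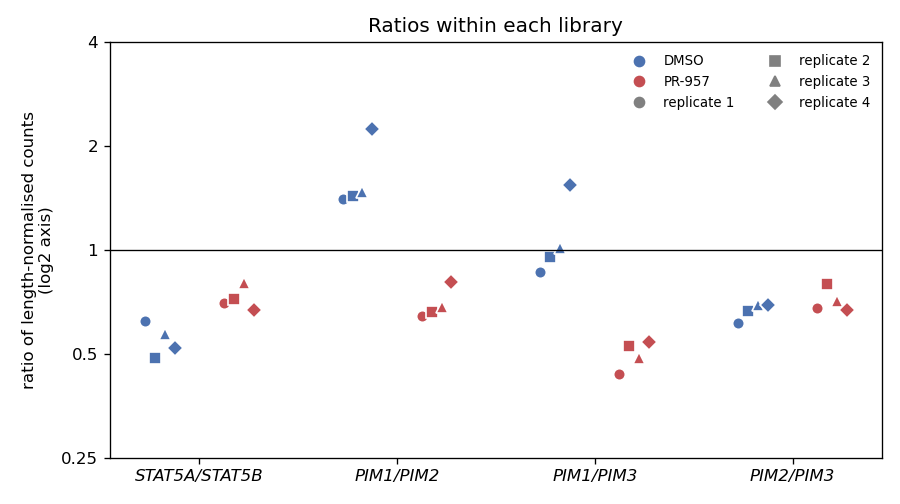
Ratio of length-normalised counts of 2 genes within each library (y axis, log2 scale), for STAT5A over STAT5B and the 3 PIM pairs. Blue points are DMSO and red points PR-957 libraries, with the shape giving the replicate. PIM1/PIM2 lies at 1.41 or above in DMSO and at 0.807 or below in PR-957 libraries, while PIM2/PIM3 overlaps between the groups.

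Among the feedback inhibitors, SOCS2, which binds the growth hormone and other cytokine receptors and also FLT3, was by far the most abundant. SOCS2 (chromosome 12, 93569849 to 93626236, plus strand) had 279, 276, 277 and 263 CPM in DMSO replicates 1 to 4, and 179.8, 194, 164 and 154 CPM in PR-957 replicates 1 to 4. The DMSO libraries lay close together, the PR-957 libraries were more spread, and the gap between the groups was wider than either spread. The log2 fold change was -0.66 (SE 0.06, edgeR adjusted p = 9.98e-08), and it was past the threshold under all 19 alternatives, from -0.77 to -0.57. PIM1 and SOCS2 were the only 2 of the 9 genes with a called decrease of at least 1.5-fold, which 7.0% of all genes tested showed.

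CISH encodes the first member of the family to be found, an inhibitor that competes with STAT5 for docking sites on receptors. CISH (chromosome 3, 50606454 to 50611774, minus strand) had 44.9, 36.5, 41.7 and 45.9 CPM in DMSO and 28.9, 29.4, 31.3 and 33.2 CPM in PR-957 libraries. The groups did not overlap, although DMSO replicate 2 came within a few CPM of the highest PR-957 library. The log2 fold change was -0.46 (SE 0.08, edgeR adjusted p = 7.48e-05), and all 19 alternatives kept it past the threshold, from -0.53 to -0.38.

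STAT dimers bind a palindrome of the form TTCNNNGAA, which reads the same on both strands. Promoter windows from RefSeq (GRCh38.p14) were found for 8 of the 9 genes, all but SOCS2. In each window the 250 bases before its start were searched for this form. The only STAT5B window (chr17:42276392-42276641, minus strand) lies within the counted gene, so the start at 42288437 was not searched. The starts used for SOCS1 and SOCS3 also differ from the ends of the counted genes. CISH held 4 matches, and no window of the other 7 genes held any. Of 35116 such windows over all genes, 6.57% held at least 1 match, 0.356% at least 2 and 0.0142%, that is 5 windows, held 4. The CISH window (chr3:50611775-50612024, minus strand) is shown because it carries this cluster, and the PIM1 window (chr6:37169902-37170151, plus strand) because PIM1 fell most while its window has no match. Both run 5′ to 3′ and end at the base before the start, and capitals mark matches.
CISH: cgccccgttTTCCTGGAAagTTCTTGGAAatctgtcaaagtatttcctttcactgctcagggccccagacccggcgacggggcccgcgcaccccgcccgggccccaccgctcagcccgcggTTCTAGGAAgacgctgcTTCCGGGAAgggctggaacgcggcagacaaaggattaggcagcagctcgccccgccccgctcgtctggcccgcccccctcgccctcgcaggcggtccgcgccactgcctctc
PIM1: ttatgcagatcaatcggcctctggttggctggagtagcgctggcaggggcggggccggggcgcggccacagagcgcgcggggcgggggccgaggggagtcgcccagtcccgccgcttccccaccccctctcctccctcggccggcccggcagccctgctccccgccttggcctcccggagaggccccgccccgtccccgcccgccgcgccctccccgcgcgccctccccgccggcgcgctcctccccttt
In CISH the matches begin 241, 230, 129 and 112 bases before the start and form 2 close pairs. A match is a run of letters and was not measured here as a bound site, and a window without one says nothing on sites farther away.

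SOCS1, a strong inhibitor that blocks Janus kinases directly, was called with less certainty. SOCS1 (chromosome 16, 11254417 to 11256182, minus strand) had 180, 118, 118 and 236 counts in DMSO replicates 1 to 4 and 106, 116, 159 and 105 counts in PR-957 replicates 1 to 4. After scaling, these were 11.3, 6.57, 7.12 and 10.3 CPM against 5.90, 6.06, 7.26 and 5.91 CPM. DMSO replicates 1 and 4 were high, and replicates 2 and 3 lay below the highest PR-957 library. The log2 fold change was -0.49 (SE 0.16, edgeR adjusted p = 0.0199). The call was lost on leaving out DMSO replicate 1 (adjusted p = 0.0935), DMSO replicate 4 (0.0582), PR-957 replicate 1 (0.0568) or PR-957 replicate 4 (0.0519). It was also lost when libraries were scaled by their totals (0.05002) and when replicates 3 and 4 alone were fitted (0.129). The lowest adjusted p of any alternative was 0.00327.

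SOCS3, an inhibitor that acts on receptors of the interleukin-6 type, had the fewest counts of the 9 genes, between 53 and 138 per library. SOCS3 (chromosome 17, 78356777 to 78360079, minus strand) was at 3.88, 4.29, 3.20 and 6.03 CPM in DMSO and at 3.68, 3.97, 4.79 and 3.37 CPM in PR-957 libraries. The groups overlapped throughout, with DMSO replicate 4 the highest. The log2 fold change was -0.15 with a 95% interval from -0.56 to 0.27 (edgeR adjusted p = 0.568), and it was 0.06 without DMSO replicate 4. At this depth a decrease as large as that of CISH was not distinguishable from no change in SOCS3.

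Levels were also ordered per kilobase of exon (FPKM, from TMM-normalised CPM and the exon length in the table). In DMSO libraries SOCS2 was highest at 45.4 ± 1.18 FPKM (SD, n = 4, as for the other genes), above 90.9% of all genes tested. PIM1 followed at 28.4 ± 8.16 and PIM3 at 26.0 ± 1.71 FPKM, and these neighbours overlapped. Their order rested on DMSO replicate 4, and without it PIM1 was at 24.4 ± 1.45 FPKM, below PIM3 at 25.9 ± 2.08 FPKM (SD, n = 3). PIM2 at 17.3 ± 0.907 and STAT5B at 12.7 ± 0.645 FPKM were each separate from their neighbours. CISH, SOCS1 and STAT5A, at 8.32 ± 0.834, 7.25 ± 1.91 and 6.96 ± 0.561 FPKM, overlapped in turn. SOCS3 was lowest at 1.59 ± 0.441 FPKM. In PR-957 libraries SOCS2 (28.7 ± 2.94 FPKM) and PIM3 (24.0 ± 2.21 FPKM) overlapped at the top. PIM1, at 11.9 ± 1.54 FPKM, ranked below PIM2 and overlapped STAT5B, and STAT5A ranked above CISH.

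**Figure D4:**
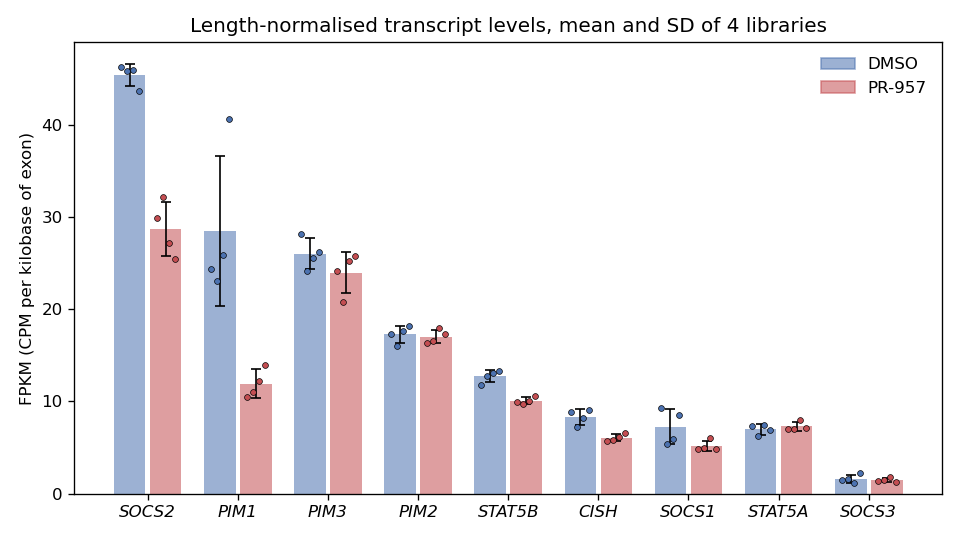
Length-normalised level of each gene (y axis, FPKM from 0) in DMSO (blue) and PR-957 (red) libraries. Bars are means of 4 libraries, error bars are the SD and points are single libraries. SOCS2 leads in both groups, and PIM1 drops from 28.4 to 11.9 FPKM, below PIM2 and PIM3.

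To place these genes in their pathway, 7 lists around STAT5 were read from the same fit. They hold 73 genes in all, of which 63 were tested, 15 were higher, 19 lower and 29 not called, with a median log2 fold change of -0.10. To be set beside these counts, and beside those of each list below, 23.5% of all genes tested were lower and 23.1% higher. Upstream, FLT3 was at 340.4 ± 7.24 CPM in DMSO and at 173.1 ± 19.7 CPM in PR-957 libraries (SD, n = 4), and fell by 0.98 on the log2 scale (SE 0.07, edgeR adjusted p = 1.1e-09). It was the only gene called lower among 14 receptors tested, where 6 were higher and the median was 0.16. IL7R, the interleukin-7 receptor chain, had the largest increase, from 0.620 to 1.83 CPM (log2 fold change 1.52, edgeR adjusted p = 0.00125). Its counts were few, at 3, 10, 15 and 19 in DMSO replicates 1 to 4 and 28, 36, 31 and 44 in PR-957 replicates 1 to 4. EPOR, the erythropoietin receptor, was higher by 1.13 on the log2 scale (adjusted p = 0.0397). It was at 25.7, 22.0, 47.1 and 57.5 CPM in PR-957 replicates 1 to 4, against 14.6 to 20.2 CPM in DMSO libraries. With a term for replicates 1 and 2 against 3 and 4 the adjusted p was 0.00209. The call of EPOR was lost in 7 of 19 alternatives. They were the fit with no filter (0.0693), the fits that left out any 1 DMSO library (0.0653 to 0.0968), and those that left out PR-957 replicate 3 (0.0970) or PR-957 replicate 4 (0.0734). CSF2RA and IL3RA, chains of the GM-CSF and interleukin-3 receptors, had 0 counts in all libraries. The table places both on the X and the Y chromosome, so that their level is unknown.

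The Janus kinases, which pass the signal from cytokine receptors to STAT proteins, moved in different directions. JAK1 fell from 83.9 ± 3.74 to 69.7 ± 1.47 CPM (log2 fold change -0.27, edgeR adjusted p = 0.000497) and TYK2 rose from 185 ± 9.69 to 218.9 ± 0.759 CPM (0.24, adjusted p = 0.000827). JAK2 had -0.18 (adjusted p = 0.127) and JAK3 -0.27 (adjusted p = 0.0747) and were not called. JAK2 was called on leaving out PR-957 replicate 2 (adjusted p = 0.0356), and JAK3 with a term for replicates 1 and 2 against 3 and 4 (adjusted p = 0.04998). Among the other STAT genes, STAT2, which carries interferon signals, was lower, at -0.29 on the log2 scale (edgeR adjusted p = 0.00265), and STAT3 and STAT6 were not called.

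Among the other SOCS genes and the partners of the SOCS-box ubiquitin ligase, 2 of 8 tested were higher and 1 lower, with a median near 0 (0.000284). SOCS7 was the one lower, from 2.36 to 1.37 CPM (log2 fold change -0.80, adjusted p = 0.0171). Its call was lost on leaving out DMSO replicate 2 (0.0529) or PR-957 replicate 2 (0.0589), and with replicates 3 and 4 alone (0.245). ELOB and ELOC, which encode the elongin subunits that bind the SOCS box, had log2 fold changes of 0.35 and 0.17. The ELOC call was lost on leaving out DMSO replicate 2 (0.0844) or PR-957 replicate 1 (0.0903), and with replicates 3 and 4 alone (0.239). SOCS4, SOCS5 and SOCS6 lay between -0.11 and 0.03 on the log2 scale and were not called.

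Of 12 phosphatases and other inhibitors of the pathway, 5 were lower and 1 higher, with a median of -0.13. CBLB, a ubiquitin ligase, PTPRC, the CD45 phosphatase, and SH2B3, an adaptor that restrains JAK2, had log2 fold changes of -0.69, -0.66 and -0.51 (edgeR adjusted p = 0.000102, 1.43e-06 and 1.3e-06). Of 11 other STAT5-responsive genes tested, 4 were lower and 2 higher, with a median of -0.13. BCL2, which prevents apoptosis, and CCND2, a cyclin of the G1 phase, were lower with log2 fold changes of -0.98 and -0.69. ID1, an inhibitor of helix-loop-helix transcription factors, was higher, from 1.62 to 6.27 CPM (log2 fold change 1.95). Among 11 proteins that PIM kinases phosphorylate, transcripts of 6 were lower and of 3 higher, with a median of -0.21. EIF4EBP1, a repressor of translation, fell from 253 to 126 CPM, FOXO3, a transcription factor, was lower, at -0.63 on the log2 scale, and CDC25A, a cell cycle phosphatase, was higher with 0.83. Whether any list differs from other genes was not tested.

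**Figure D5:**
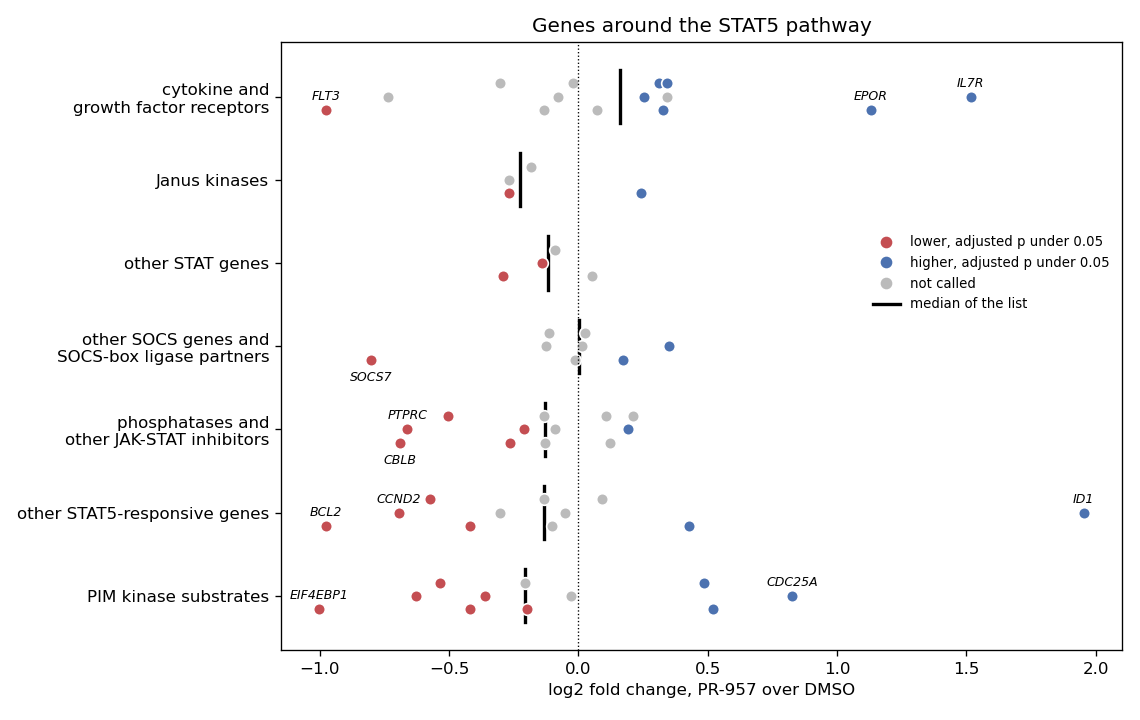
Log2 fold change of PR-957 over DMSO (x axis) for each tested gene of the 7 lists around the pathway. Red marks genes lower and blue genes higher at an adjusted p under 0.05, grey marks genes not called, and black lines are list medians. FLT3 is the only receptor called lower, at -0.98, and ID1 has the highest value, 1.95.

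The genes closest in pattern were last sought among 10990 others by Pearson correlation of log2 CPM over the 8 libraries, as a description, since the libraries share the treatment. For PIM1 these were PCMTD1, ZFP36L1 and TBC1D30, with r from 0.991 to 0.995. For SOCS2 they were BANK1, PTER and COPB1, with r from 0.997 to 0.998. The log2 fold changes of the first 3 were -0.40, -1.92 and -2.27, and those of the latter were -0.98, -0.87 and -0.47. With replicates 3 and 4 alone, TBC1D30 was not called (adjusted p = 0.145), as was so for PIM1.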

How the data were processed

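Reads were trimmed with Trimmomatic 0.39 and aligned to hg38 with STAR 2.7.10a, per the labels. Per the file headers the authors counted fragments with featureCounts 2.0.1 on the reverse strand against NCBI RefSeq genes, both ends mapped, and the deposited counts are raw. Exon length was taken from the same deposited table. A deposited table of the authors' own DESeq2 comparison (log2 fold changes, p-values) was not used. The counting command named 16 libraries, of which the 8 in the table were analysed. Groups and replicate numbers came from the sample titles.

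Of 38557 gene rows, 6 without values were left out. The filter filterByExpr kept 13179 genes with 99.9% of counts. PR-957 was compared with DMSO by edgeR 4.0.16 (R 4.3.3, TMM, glmQLFit robust, glmQLFTest, two-sided, no covariate), with Benjamini-Hochberg adjustment across the tested genes. SE is the absolute log2 fold change over the square root of F, and intervals use the t distribution with the fit's degrees of freedom. DESeq2 1.42.0 and limma 3.58.1 (voom) served as alternatives, beside other scalings, filters, a replicate block, a term for replicates 1 and 2 against 3 and 4, pairs of replicates and leaving out each library. Ratios were tested by exact permutation (scipy 1.17.1). The 9 genes and the lists were chosen with earlier results of these data known. Named genes were the 9, FLT3, the Janus kinases, the 3 largest called changes per list and the 3 genes most alike to PIM1 and SOCS2. Others named were chosen after their values were seen, as were the PIM levels, shares and ratios without DMSO replicate 4. 1 gene of the lists is not reported here.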

Additional observations from a re-analysis of the deposited data

Results flagged for a closer look

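Of 18 groups of 4 libraries (9 genes by 2 treatments), 4 held a library far from the other 3, where chance flags about 1 in 20. PIM1 was at 109.7 CPM in DMSO replicate 4, above the other DMSO libraries. SOCS2 was at 263 CPM in the same library, below the others. STAT5A was at 36.0 CPM and SOCS1 at 7.26 CPM in PR-957 replicate 3, each above the other PR-957 libraries. Without DMSO replicate 4 the log2 fold change of PIM1 was -1.04 and that of SOCS2 -0.68. Without PR-957 replicate 3 that of STAT5A was 0.02 and that of SOCS1 -0.57. The call or absence of a call for these genes did not change in those fits.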

How the results depend on the processing

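The number of the 9 genes called lower was 5, and it ranged from 3 to 6 over 19 alternatives. It was 3 in replicates 3 and 4 only, where PIM1 (adjusted p = 0.0664) and SOCS1 (0.129) were not called. That fit has 2 libraries a group. No alternative called any of the 9 genes higher. PIM2 changed sign with library totals alone (log2 fold change 0.059, adjusted p = 0.505) and without DMSO replicate 4, and ran from -0.056 to 0.0040 when single libraries were left out. SOCS3 changed sign without DMSO replicate 4, and ran from -0.27 to 0.063 when single libraries were left out. Neither gene was called in any of these fits. With library totals alone the median log2 fold change of all genes tested was 0.0807, against 0.00300 with TMM. The cause of the sign changes was not tested. Scaled by library totals, 4066 genes were called higher and 2353 lower, against 3045 and 3098 with TMM, and the 5 called genes had smaller decreases, of which SOCS1 was not called (0.05002). With the replicate number as a block, 6913 genes were called in place of 6143, and 5 of the 9 genes were lower as before. With a term for replicates 1 and 2 against 3 and 4, 6668 genes were called, and again 5 of the 9 were lower. Same-numbered libraries of the 2 groups had correlations of 0.0985 to 0.213 in their deviations from the group means. All correlations between replicates 1 or 2 and replicates 3 or 4 were negative (-0.187 to -0.0411). Within each of these sets all were positive (0.0737 to 0.213). Deviations from a group mean cancel out over the group, so this contrast in sign is partly built in. Each DMSO replicate correlated most with the PR-957 replicate of its own number. The same held for PR-957 replicates 1, 2 and 4, while PR-957 replicate 3 correlated about equally with DMSO replicates 3 (0.0985) and 4 (0.105). Whether equal numbers mark pairs was thus not settled, and the main fit had no covariate, with fits holding either term given above. Depth limits SOCS1 and SOCS3 most, with under 250 counts in each library.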

Other observations

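Some genes of the list of STAT5-responsive genes, chosen here after their values were seen, are given as values. MYC, a growth-promoting transcription factor, averaged 791.2 ± 63.6 CPM under DMSO (SD, n = 4) against 531.3 ± 16.1 CPM under PR-957, and fell by 0.57 on the log2 scale (edgeR adjusted p = 3.37e-07). BCL2L1, which encodes BCL-XL, rose from 24.3 to 32.6 CPM (log2 fold change 0.43, adjusted p = 0.0466) with overlap between the groups, and MCL1 was not called (0.09, adjusted p = 0.198). CDKN1A, which encodes the cell cycle inhibitor p21 and is listed both as STAT5-responsive and as a PIM substrate, fell by 0.42 on the log2 scale (adjusted p = 0.000143). Other receptors called higher beside IL7R and EPOR were CSF2RB, CSF3R, IL6R and IFNAR2, with log2 fold changes from 0.25 to 0.34.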
